A study of Mus musculus with 2 samples.

Results

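The genes described here are the 4 signalling chains of the T cell receptor complex (Cd3d, Cd3e, Cd3g and Cd247) and the 3 coreceptor genes Cd8a, Cd8b1 and Cd4. They were taken by symbol from an annotation of an Affymetrix mouse platform that the probe set names match. The design text names Mouse Gene 2.0 arrays, which is another platform, so the array type is not settled and every gene name here rests on that annotation. All 7 were found, each with 1 probe set, among the 19505 named genes. The set was proposed after most of these genes had been seen to read low on 1 array, so its members were in effect chosen by the same difference that is described below. That difference is therefore a description and supports nothing by itself.

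The study measured gene expression in sorted progenitors of mouse innate lymphoid cells (ILCs) with 1 Affymetrix array per genotype. The cells of both genotypes were sorted as negative for lineage markers, positive for CD127 and for the integrin α4β7, and intermediate for c-Kit and Sca-1. One array carried RNA of wild-type progenitors (wild-type littermates) and the other RNA of progenitors from mice with a deletion of Yeats4, a chromatin reader of acetylated histones. The labels used here give no Cre driver or deleted exon, no age, no number of mice behind each array and no list of the lineage antibodies. Yeats4 itself read 5.96 and 5.90 (log2), and the labels do not place its probes relative to the deletion, so this level is no check of the genotype. Below, the second array is named the knockout-labelled array. Since each genotype has a single array, differences carry no replicate error and were not tested. Each sample was measured as a whole, so that fewer cells of a type and less RNA per cell cannot be told apart.

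The T cell receptor itself has almost no intracellular part and signals through CD3. The CD3ε chain pairs with CD3δ and with CD3γ, and a dimer of the ζ chain, the product of Cd247, completes the complex. Their cytoplasmic tails carry tyrosine activation motifs (ITAMs) that the kinase Lck phosphorylates and to which ZAP-70 binds. CD8, a dimer of the α and β chains, and CD4 bring Lck to the receptor while they bind MHC class I and class II molecules. Outside the T lineage, the ζ chain also serves natural cytotoxicity and Fc receptors of NK cells, a subset of dendritic cells carries CD8α homodimers, and lymphoid tissue inducer cells and some myeloid cells carry CD4. In the mouse, Cd3g, Cd3d and Cd3e lie next to each other on chromosome 9, Cd8b1 and Cd8a next to each other on chromosome 6, Cd4 elsewhere on chromosome 6 and Cd247 on chromosome 1.

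The bases before the starts of Cd3g, Cd3d, Cd3e and Cd8a are shown because these genes are neighbours or partners that read low together on the knockout-labelled array. RefSeq promoters (GRCm38.p6) were matched for 5 of the 7 members, namely these and Cd247. Each run is given 5′ to 3′ in the gene's own direction and ends before the outermost annotated start of the gene. Capitals mark matches on either strand to TGTGG, the core that RUNX factors bind, and to CANNTG, the E-box of E proteins, and no marked match overlaps another.
Cd3g (chr9:44980432-44980681, minus strand): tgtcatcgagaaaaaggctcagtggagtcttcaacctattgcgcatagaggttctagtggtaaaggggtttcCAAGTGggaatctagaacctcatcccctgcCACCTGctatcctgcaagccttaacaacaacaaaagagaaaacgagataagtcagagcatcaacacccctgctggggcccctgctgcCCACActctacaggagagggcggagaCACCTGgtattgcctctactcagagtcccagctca
Cd3d (chr9:44981536-44981768, plus strand): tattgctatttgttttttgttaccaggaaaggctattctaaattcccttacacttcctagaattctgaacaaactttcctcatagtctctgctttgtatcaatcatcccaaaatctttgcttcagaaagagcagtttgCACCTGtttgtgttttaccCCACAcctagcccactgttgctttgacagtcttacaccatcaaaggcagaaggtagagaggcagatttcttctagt
Cd3e (chr9:45009664-45009861, minus strand): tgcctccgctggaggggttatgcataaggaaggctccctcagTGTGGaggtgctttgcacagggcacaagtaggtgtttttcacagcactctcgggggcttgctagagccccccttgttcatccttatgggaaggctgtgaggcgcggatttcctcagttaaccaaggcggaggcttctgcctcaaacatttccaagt
Cd8a (chr6:71373177-71373426, plus strand): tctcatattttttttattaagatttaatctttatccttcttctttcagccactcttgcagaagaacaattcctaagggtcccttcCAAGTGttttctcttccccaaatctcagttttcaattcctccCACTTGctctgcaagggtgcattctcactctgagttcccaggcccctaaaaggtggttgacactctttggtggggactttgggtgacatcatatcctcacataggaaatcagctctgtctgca

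Over the 250 bases before the tabulated start, an E-box stood in all 5 matched members, with 3 matches at Cd3g, 2 each at Cd8a and Cd247 and 1 each at Cd3d and Cd3e. Of 32851 RefSeq promoter windows of the same length, 66.2% hold it. The RUNX core was found 2 times at Cd3e, once each at Cd3g, Cd3d and Cd247 and not at Cd8a, and 49.3% of all windows hold it. The Cd3e E-box and its other RUNX core reach into the bases left out and are not marked. The ETS core GGAA had 6 matches each at Cd3d and Cd8a, 5 at Cd3e, 2 at Cd3g and 1 at Cd247, beside a median of 3 over all windows, 93.4% of which hold it. The letters CTTTG, part of the site of TCF and LEF factors, occurred 4 times at Cd3d, 2 times at Cd8a, 1 time at Cd3e and at neither Cd3g nor Cd247 (48.6% of all windows). GATA occurred at 4 of the 5, all but Cd3e (53.6%), and TATAA at none (22.8%). These are matches of letters in a window, not sites of binding.

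On these arrays 6 of the 7 genes read lower with the label knockout, and 5 read at least 2-fold lower. Those 5 were Cd3d, Cd3e, Cd3g, Cd8a and Cd8b1. The median difference of the 7 was -2.10 on the log2 scale, beside 0.08 over the 10881 genes whose mean level passed the median of all probe sets (2.88). Of those 10881 genes, 85 or 0.781% were at least 2-fold lower and 170 or 1.56% at least 2-fold higher, and no member was 2-fold higher. With each array centred on its median the counts over all genes were 120 lower and 121 higher. The share of all genes below 0 was not counted, so counts of genes below or above 0, here and further on, are descriptions only. The member count uses the contrast that led to the choice of the genes, so nothing is read from its excess.

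The negative control probe sets of the array, 5222 in number, set what level can be told from background. Their 95th percentile, called the control level here, was 4.80 for wild type and 4.73 for the knockout-labelled array. A gene under it on both arrays is said to be near background. On the wild-type array all 7 members lay above that level. On the knockout-labelled array only Cd3e and Cd4 did. The pattern of the other 5, above on the wild-type array alone, was found for 283 or 2.6% of all genes past the level filter. For these 5 genes the measured difference depends on readings inside the range of the controls, so their fold is stated only as a minimum, taken against the control level of the knockout-labelled array. Such a limit takes the wild-type reading as exact and holds no replicate error.

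**Figure D1:**
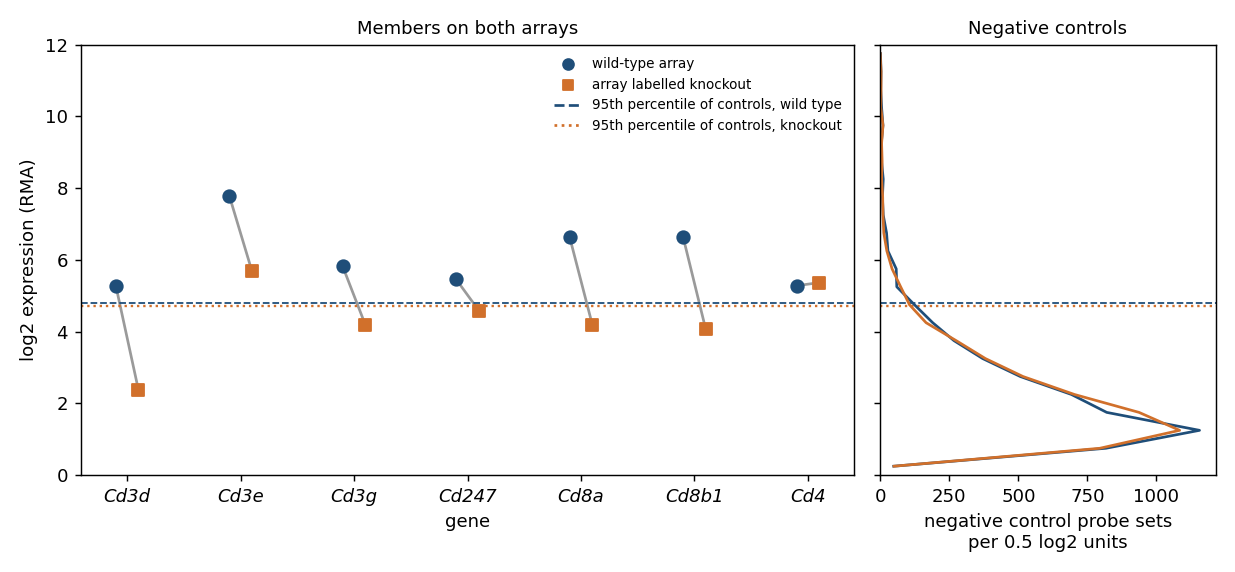
Left, log2 expression of the 7 genes on the wild-type array (circles) and the knockout-labelled array (squares), 1 array each, with the 95th percentile of the negative controls of each array as horizontal lines (4.80 and 4.73). Right, the number of negative control probe sets at each level; all 7 circles lie above the lines, and only the squares of Cd3e and Cd4 do.

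Cd3e encodes CD3ε, the chain that both CD3 dimers contain. It read 7.79 with wild-type RNA and 5.69 with RNA labelled knockout. Both readings lay above the control level, so the 4.30-fold lower value (-2.10 log2) is a measured one on both sides under that choice of level. As a measure of scatter between the arrays, a local spread was computed for each gene from the 500 genes closest to it in mean level (their scaled median absolute deviation). It was 0.28 here. Of the negative controls, 99.1% lay below the reading on the wild-type array and 97.9% below that on the knockout-labelled array.

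Values are given in the same order below, wild type first. Cd3g, which encodes CD3γ, read 5.82 and 4.19. It was at least 2.13-fold lower (-1.63 log2 as measured, local spread 0.39). Cd3d, which encodes CD3δ, read 5.28 and 2.37. Its difference was -2.92 as measured, but the reading on the knockout-labelled array was above only 64.8% of the negative controls, and the limit was 1.47-fold (0.56 log2, local spread 0.41). Cd3d thus had the lowest measured difference and the smallest limit of the 5 genes that have one, because its wild-type reading was close to the control level. It passed the level filter, with a mean of 3.83, through its wild-type reading alone.

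Cd247, which encodes the ζ chain shared with NK cell receptors, read 5.46 and 4.59. The difference was -0.87 as measured, with a local spread of 0.37, and the limit was 1.66-fold lower. Of the 200 negative controls closest to it in mean level, 20 had a difference as low as the measured one. Neither that difference nor the smaller limit therefore sets Cd247 apart from background. The measured difference was smaller than those of the 3 CD3 chains, while the limit was larger than that of Cd3d, so Cd247 and Cd3d have no settled order. On either side of the 2-fold mark (-1 log2) the nearest members were Cd3g at -1.63 and Cd247. Whether Cd247 differs from the other chains was not tested.

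The CD8 genes read low together. Cd8a, the α chain, read 6.64 and 4.19 and was at least 3.77-fold lower (-2.44 log2 as measured, local spread 0.39). Cd8b1, the β chain, read 6.64 and 4.06 and was at least 3.77-fold lower as well (-2.58 log2 as measured, local spread 0.37). These were the largest limits among the members under the control level on 1 array.

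Cd4 was the member that did not read low. It read 5.28 and 5.37, both above the control level. Its difference of 0.09 was small beside the local spread of 0.37, and 229 of the 500 closest genes were as low. The sign was not settled, since the difference was -0.03 after a loess correction on level and -0.02 after quantile normalization. The wild-type reading was also near the control level, with 96.3% of the negative controls below it. A lower Cd4 level on the knockout-labelled array thus had little room to show above the control level. Readings could fall further: Cd3d also read 5.28 on the wild-type array and read 2.37 on the other.

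Negative controls past the same level filter also differed 2-fold, 6.37% of 1224 lower and 3.43% higher. The lowest of those controls was at -2.51. Of the 200 negative controls closest to each member in mean level, 20 were as low as Cd247, 1 as low as Cd3g and 145 as low as Cd4. For each other member it was 0. The members were in effect chosen by this difference, so these counts lend the members no support. With readings under the control level of their array raised to it, 4 members (Cd3e, Cd3g, Cd8a and Cd8b1) were still at least 2-fold lower, beside 23 genes or 0.211% of all.

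**Figure D2:**
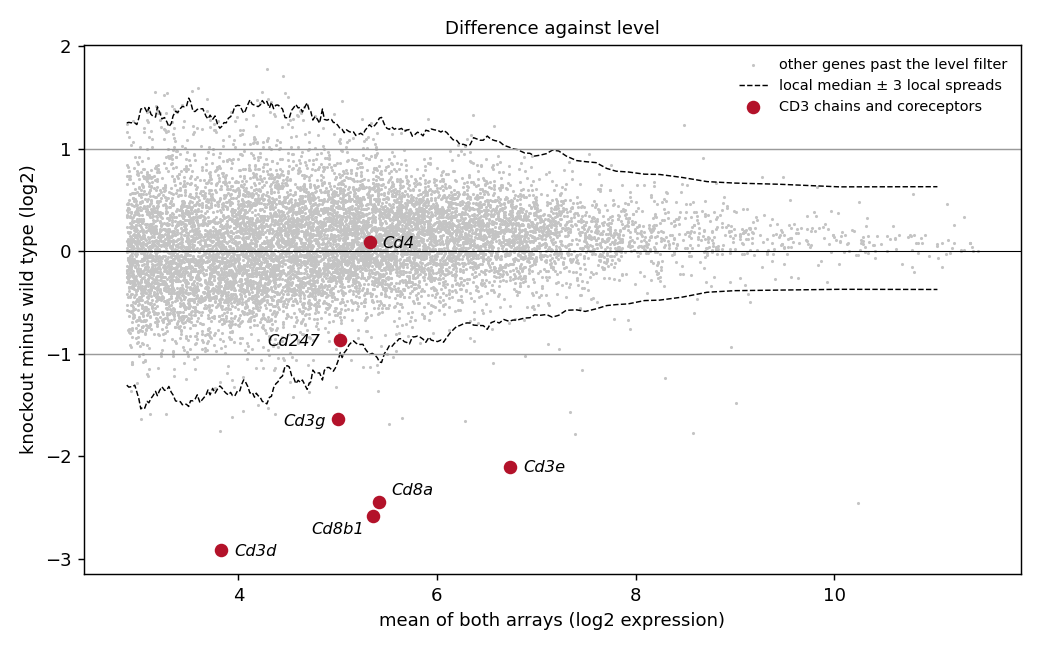
Difference between the arrays (knockout minus wild type, log2) against the mean of both arrays for the 10881 genes past the level filter, with the 7 members in red, grey lines at 2-fold and dashed lines at 3 local spreads around the local median. Cd3d, Cd8b1, Cd8a, Cd3e and Cd3g lie below both lines, Cd247 at -0.87 and Cd4 at 0.09 within them.

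The genes that flank the members did not read 2-fold lower. Genes with predicted names (Gm and a number, or ending in Rik) were left out. The 3 nearest other measured genes on each side of the 4 loci gave 24 neighbours. None of these differed 2-fold in either direction (range -0.51 to 0.78). Of these, 17 were under the control level on both arrays, where a lower level cannot be seen, and 7 above it on both. Beside the CD3 cluster, Ube4a, a ubiquitin ligase gene that follows Cd3g, read 5.78 and 6.56, a difference of 0.78, and Atp5l, an ATP synthase subunit gene, 7.41 and 7.63. On the other side Mpzl2 (0.05), Mpzl3 (-0.11) and Jaml (-0.02) were near background on both arrays, as was Ttc36 (0.20) beyond Atp5l. Next to Cd8a, Rmnd5a read 5.48 and 5.61, while Rnf103 (0.10), Chmp3 (0.60), Smyd1 (0.21), Fabp1 (0.30) and Thnsl2 (-0.30) were near background.

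At the Cd4 locus, Lag3, an inhibitory receptor gene related to Cd4, read 3.73 and 4.27, near background on both arrays. Ptms (-0.01) and Mlf2 (-0.20) were above the control level on both, while Gpr162 (0.42), P3h3 (-0.31) and Gnb3 (-0.03) were near background. At the Cd247 locus, Creg1 read 6.87 and 7.52, a difference of 0.65, and Rcsd1 was at -0.14. Mpzl1 (-0.51), Gpa33 (-0.42), Mael (-0.24) and Dusp27 (0.12) were near background.

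**Figure D3:**
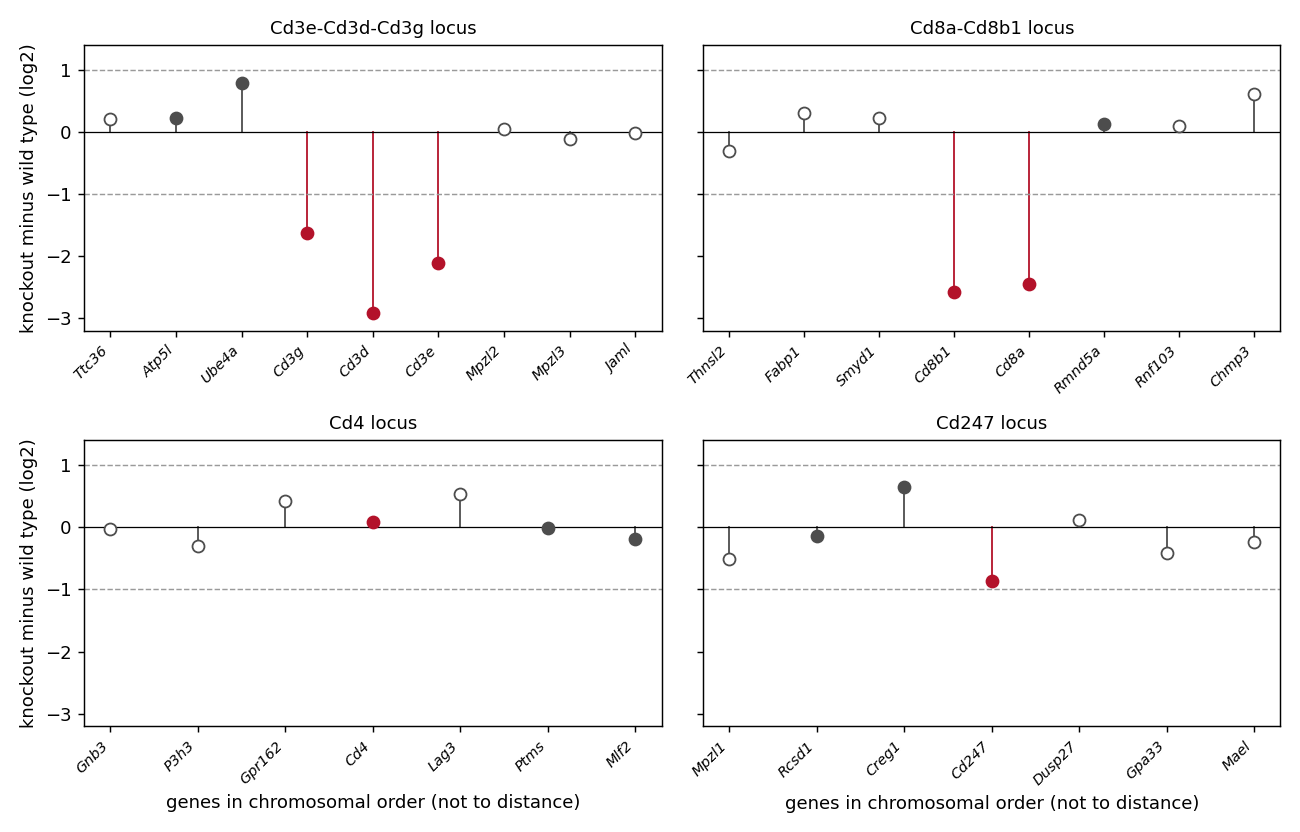
Difference between the arrays (knockout minus wild type, log2) for the members (red) and the 3 nearest measured genes on each side (grey) in chromosomal order, 1 panel per locus. Genes with predicted names (Gm and a number, or ending in Rik) are left out. Open symbols mark genes under the control level on both arrays and dashed lines 2-fold; no neighbour passes 2-fold, with a range of -0.51 to 0.78.

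Other components around the receptor had medians nearer to 0 than the members. The members were in effect chosen for low readings, so nothing is read from that order. Of 28 proximal signalling genes past the filter, 20 were below 0 and 3 at least 2-fold lower, with a median of -0.27. Of all genes past the filter, 0.781% were at least 2-fold lower. Grap2, the adaptor that links LAT to SLP-76, read 6.09 and 4.73 and was 2.58-fold lower, while Themis (-1.76), a regulator of thymocyte selection, and the adaptor Skap1 (-1.12) were under the control level on both arrays. Of 13 T cell surface partners 11 were below 0 and 4 at least 2-fold lower, with a median of -0.64 that was -0.079 with readings raised to the control level. Thy1, a glycoprotein of T cells that many ILC progenitors also carry, read 7.11 and 5.45, and the costimulatory receptor gene Cd28 was 2.27-fold lower (-1.18). Cd6 (-1.06), under the controls on the knockout-labelled array, was at least 1.47-fold lower, and Cd2 (-1.15) was near background on both. Of 3 genes of the pre-T cell receptor and its rearrangement past the filter 2 were below 0 (median -0.09, and 0.10 with no level filter). Ptcra, which encodes the pre-T α chain, was at -1.07 and near background.

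The list of ITAM adaptors of other receptors covers signalling genes that myeloid and B cells use. It also holds Hcst, an adaptor without an ITAM, and the kinase Syk, so not all its genes are ITAM adaptors. All 6 passed the filter and none differed 2-fold. The median of -0.31 lay between Hcst (-0.36) and Syk (-0.26). Fcer1g, the Fc receptor γ chain that can stand in for the ζ chain, read 8.80 and 8.82. Tyrobp, the adaptor DAP12, read 7.80 and 7.82. After the loess correction they were at -0.11 and -0.13, so the sign is not settled. The B cell receptor chains Cd79a and Cd79b were at -0.76 and -0.55.

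Factors known to act on the CD3, CD4 and CD8 genes did not move alike. Of 23 past the filter 13 were below 0, 1 was 2-fold lower and 1 higher, and the median was -0.03. Over all genes past the filter, 0.781% were 2-fold lower and 1.56% higher. Lef1, an HMG box factor of early T cells, read 6.46 and 4.83 and was 3.08-fold lower. Id2, which restrains E proteins, read 7.88 and 9.11, 1.23 higher on the log2 scale. Bcl11b, the T lineage commitment factor, was at -0.98 and near background on both arrays. Runx1 (0.22) and Runx3 (-0.03), which bind the silencer of Cd4 and enhancers of Cd8a, and Zbtb7b (-0.22), which promotes the CD4 lineage, differed by less than their local spreads.

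The genes most like Cd3e and Cd8a on the 2 arrays came from several lineages. Likeness was the distance between genes in the plane of the 2 log2 readings, so it rests on 2 arrays and on level as well as difference. Genes with predicted names (Gm and a number, or ending in Rik) were left out. Nearest to Cd3e were Thy1 (distance 0.72), the cytokine receptor chain gene Il2rb (0.76), the pre-B cell gene Vpreb3 (0.79), the eosinophil peroxidase gene Epx (0.93) and the chemokine gene Ccl5 (0.95). Nearest to Cd8a, apart from Cd8b1 and Cd3g, were the lipoxygenase gene Alox15 (0.56), Lef1 (0.66), Grap2 (0.76), Cd28 (0.89) and Gabbr1 (0.94).

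Markers of the other cells that can carry these genes were read from the same arrays. The sort gate genes were above the control level on both arrays and none differed 2-fold, with Il7r, which encodes CD127, at -0.70, Kit at 0.65 and a median of -0.07. Markers of dendritic cells that carry CD8α had 7 members past the filter, none 2-fold different, between Zbtb46 (-0.46) and Itgax (0.49), both near background. Their median was 0.05, and -0.04 after centring. The markers Xcr1 and Clec9a, which define that subset, were under the control level on both arrays (1.29 and 1.45, and 1.78 and 1.59). Plasmacytoid dendritic cell markers, 8 past the filter, lay between Cox6a2 (-0.30) and Bst2 (0.47), with a median of 0.03 that was -0.06 after centring. Lymphoid tissue inducer and ILC3 markers had 5 past the filter and a median of -0.40, between Lta (-0.54) and Il1r1 (0.73). With the filter at the 75th percentile Il1r1 alone set that median.

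Markers of NK cells and ILC1 had a median of -0.40 over 11 past the filter, with 3 at least 2-fold lower as measured. The share over all genes past the filter was 0.781%. Il2rb read 7.11 and 6.01, and Cd160 (-1.16) and Eomes (-1.06) were at least 1.24-fold and 1.31-fold lower. Their summed level, the sum of the readings of all 15 on the linear scale, was 1061 and 1161. That sum was mostly Nkg7, a granule protein gene (8.63 and 9.16), and the Fc receptor gene Fcgr3 (8.30 and 8.57), and without these 2 the other 13 summed to 350 and 212. The list named for innate-like and gamma delta T cells had 7 past the filter. It also holds genes not particular to those cells, Blk and Cd5l among them, so its median is no measure of them. Blk (-1.27) was at least 1.35-fold lower, and Cd5l (1.59) was near background. The median was 0.06, and it turned to -0.03 after centring and to -0.35 with the filter at the 75th percentile. That last value is Zbtb16 alone, which was under the control level on the knockout-labelled array.

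Low readings were not particular to T lineage genes. Of 10 B cell markers past the filter all were below 0 and 4 at least 2-fold lower as measured (median -0.86). Over all genes past the filter, 0.781% were at least 2-fold lower. The summed level of the 11 B cell markers found was 2206 and 1455. Igll1 read 8.05 and 6.88 and Vpreb3 7.40 and 6.38, while Vpreb1 (-1.37) and Pax5 (-1.32) were under the control level on the knockout-labelled array. Their limits were 1.60-fold and 1.89-fold lower, short of 2-fold. Of 7 eosinophil markers past the filter 5 were at least 2-fold lower (median -1.56), and the summed level of the 8 found was 2002 and 702. Ear6 read 9.47 and 7.69, Prg2 9.76 and 8.28 and Epx 8.13 and 6.56, all above the control level. The Epx reading of 6.56 was under the 99th percentile of the negative controls on the knockout-labelled array (7.02). Alox15 (-1.68) was at least 3.10-fold and Prg3 (-1.56) 1.07-fold lower. The other 2 did not read lower, with Siglecf (0.14) near background and Ccr3 at 4.02 and 4.98, under the control level on the wild-type array alone. Monocyte and macrophage markers went the other way, with 8 of 11 above 0 and a median of 0.59, from Lyz2 (-0.26) to Vcam1 (0.97), and a summed level of 3046 and 3270. Neutrophil markers had a median of -0.18 over 12, with 8 below 0, from Ltf (-0.55) to Ctsg (0.72), and a summed level of 13589 and 14714. The T cell surface partners summed to 604 and 388. These sums lean on the genes of highest mean. Without the 2 highest of each list they were 9163 and 9284 for neutrophil and 508 and 693 for monocyte and macrophage markers. They were 390 and 273 for T cell surface partners, 1060 and 572 for B cell markers and 430 and 185 for eosinophil markers. The part of any of these cell types in the readings of the CD3 and CD8 genes was not tested.

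**Figure D4:**
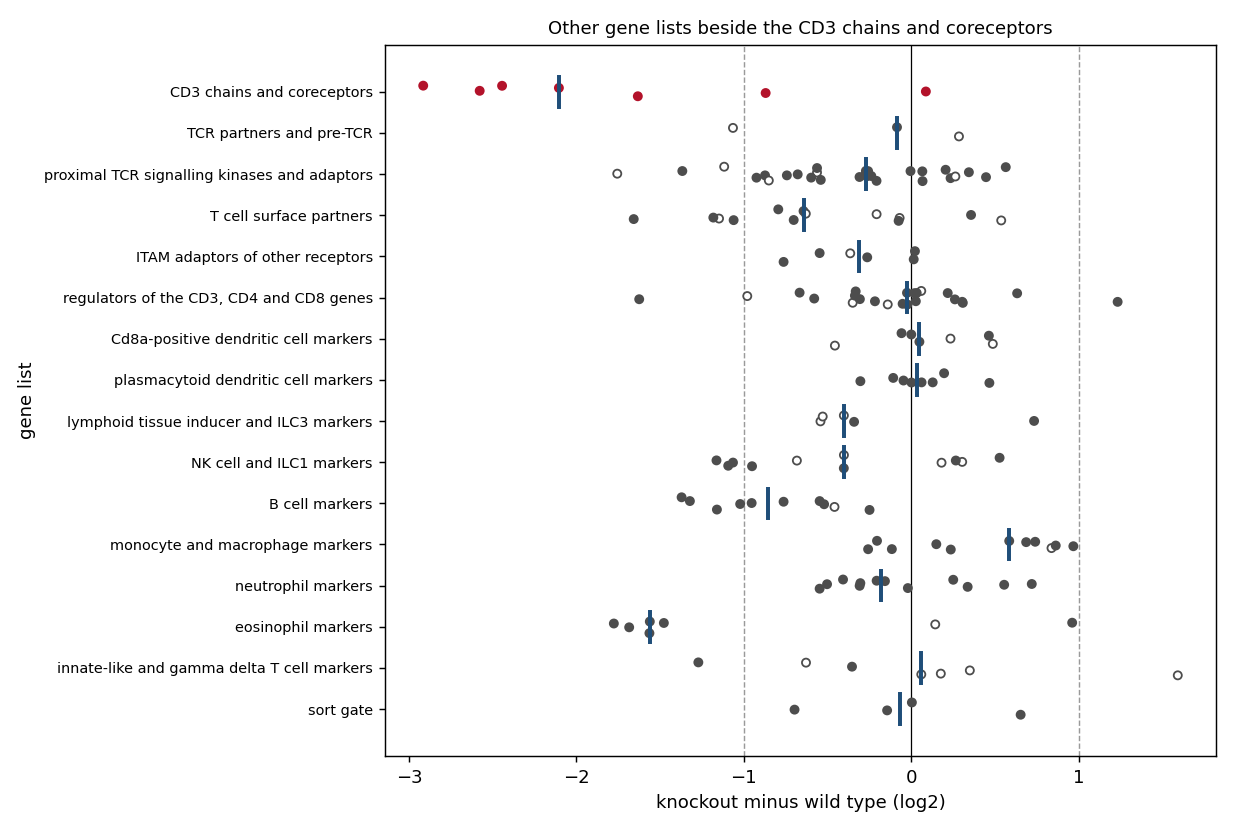
Difference between the arrays (knockout minus wild type, log2) for each gene past the level filter in the members (red) and the 15 other lists (grey), with the list median as a bar and dashed lines at 2-fold. Open symbols mark genes under the control level on both arrays. The medians of the members (-2.10), which were in effect chosen by this difference, eosinophil markers (-1.56) and B cell markers (-0.86) lie lowest.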

How the data were processed

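Log2 expression values were deposited by the authors as 1 table with a value per probe set and array, made with Affymetrix Power Tools and RMA per the submitters' processing notes. RMA corrects background, quantile normalizes the arrays and summarises probes, so a change of total RNA per cell is not visible. Versions and the genome build: not given in the sources used here. Of 29129 probe sets, the annotation names 1 gene for 19572. Where a gene had several probe sets (55 genes, no member), the one of highest mean stood for it. Genes not in that annotation, such as Tcf7, Gata3, Lck and Ly6a, and T cell receptor segments were not analysed here.

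Each difference is knockout minus wild type, on values as deposited. Genes entered when the mean of both arrays was at or above 2.88. No p-value is given, since each genotype has 1 array, and that number limits the precision. The members, the 15 lists and the naming rule were chosen with earlier results of these data known. The rule names all members, list members at least 2-fold different (at most 6 per list, otherwise the lowest and the highest), 9 genes chosen for their role, the 3 measured neighbours on each side of a locus and the 5 genes most like Cd3e and Cd8a. Neighbours and most like genes leave out predicted names (Gm and a number, or ending in Rik). Xcr1, Clec9a, Siglecf, Ccr3, Nkg7, Fcgr3, Hcst, Syk and Cd79b were named after their values were seen. Alternatives were centring, a loess correction (span 0.3), quantile normalization, the mean of probe sets, readings raised to the control level, 2 level filters, a 1.5-fold threshold and control levels at the 90th and 99th percentile. The local spread and the fold call were tried on simulated arrays with planted differences. That trial did not cover the control level, the limits, the lists or the choice of members. Python 3.11.15, numpy 2.4.6, pandas 2.3.3 and statsmodels 0.14.6 were used.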

Additional observations from a re-analysis of the deposited data

How the results depend on the processing

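The count of 5 members at least 2-fold lower stayed within 1.5 times under all alternatives tried, between 4 with readings raised to the control level or with the 75th percentile filter, which removes Cd3d, and 6 at a 1.5-fold threshold. At the 1.5-fold threshold 561 of all genes past the filter, or 5.16%, were lower and 997 higher. The median difference of the members (-2.10) was -1.09 with raised readings, since 5 of the 7 then stand at the control level on 1 array. The count of members above the control level on the wild-type array alone (5) was 1 with the level at the 90th percentile, where it was Cd3d, and 1 at the 99th percentile, where it was Cd3e. At the 99th percentile all other members were under the level on both arrays, so the limits given above do not hold there. Raising readings gives genes under the level on both arrays a difference of -0.079, the gap between the arrays' levels, and moved the median of all genes by -0.16; under it Cd5l (1.59) turned to -0.079. Over all genes, 85 lower and 170 higher became 23 and 19 with raised readings and 25 and 35 with the 75th percentile filter, and 137 were lower with no level filter. Without replicates no array could be left out, and low signal over background limits Cd3d, Cd247 and Cd4 most.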
